A study of Mus musculus with 4 samples.

Results

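The fibroblast growth factor (FGF) genes examined here are 10 rows of a table of 51826 gene rows, chosen by their symbols: the ligands Fgf1, Fgf2, Fgf6, Fgf7 and Fgf9, the intracellular factors Fgf11 and Fgf13, the endocrine ligand Fgf21, and the receptors Fgfr1 and Fgfr4. They were chosen with earlier results of these data in view, so their differences between genotypes are given as descriptions. RNA came from the quadriceps of 2 wild-type (WT) and 2 Mef2dα2 Eko male mice, with 1 library per mouse. All 4 were sedentary mice of about 20 weeks of age, fed standard chow, on the C57BL6/J background, and their muscles were collected within the same hour. The Eko mice carried a homozygous CRISPR-Cas9 deletion of the α2 exon of Mef2d in every cell, and the WT mice were littermates without it. MEF2D is a transcription factor of muscle and other tissues, and the deleted exon is the one that adult skeletal muscle mainly includes. The founder line of the sequenced mice is not given in the sources used here. With 2 mice of each genotype, p-values set a difference against the spread between these mice, estimated partly from other genes.

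FGF ligands bind receptor tyrosine kinases of the FGFR family together with heparan sulfate on the cell surface, and the receptors signal through the adaptor FRS2 to the RAS, MAP kinase and AKT pathways. In skeletal muscle FGF signalling is known for its part in the growth of satellite cells, the muscle stem cells, and for holding back their differentiation. A separate branch of the family, the FGF homologous factors, stays inside the cell and binds voltage-gated sodium channels. FGF21 acts as a hormone and is induced by the integrated stress response.

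Total expected counts, the RSEM estimates of reads per gene, were between 72626757 and 85176059 per library. Levels below are in CPM, a library's counts scaled by its total after TMM adjustment, and are given for each mouse or as the genotype mean ± SD (n = 2), and 3 counts, taken as the floor of detection, correspond to 0.0348 to 0.0419 CPM. This floor covers counting error only, since the reads carry no molecular identifiers. Genotypes were compared by the quasi-likelihood test of edgeR, and p-values were adjusted (Benjamini-Hochberg) over all 16120 genes tested, of which 67, or 0.416%, had an adjusted p below 0.05. Log2 fold changes are for Eko against WT mice with their standard errors (SE). The deposited counts do not separate the exons of Mef2d, whose total was 19687 and 18393 counts in WT and 21695 and 17206 in Eko mice, so they do not check the genotype labels. The muscle label was checked against 8 fibre genes such as Acta1, Ckm and Myh4, which summed to between 116743 and 121794 CPM in every library.

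Of the 10 members, 9 passed the filter on low counts and Fgf21 did not. Of the 9, 0 had an adjusted p below 0.05, beside the 0.416% of all genes, and 3 (Fgf1, Fgf2 and Fgf11) had an unadjusted p below 0.05, beside 11.6% of all genes. Fgf2 came nearest to the threshold and stood at position 74 of the 16120 genes ordered by p, just past the 67 genes called. Both Eko mice lay above both WT mice for 4 members (Fgf2, Fgf7, Fgf11 and Fgf13), beside 20.8% of all genes, and below both for 1 (Fgf1), beside 23.0%. In either direction this was 5 of 9 members, beside 43.8% of all genes tested. DESeq2 called 1 member, Fgf2, where it called 318 of 13307 genes, or 2.39%. The likelihood ratio test of edgeR also called Fgf2 alone, beside 1.94% of all genes, and without a filter on low counts edgeR called Fgf2 and Fgf1, beside 3.25%, while limma-voom called 0. With a mouse left out, edgeR called 1 member, again Fgf2, without WT replicate 1, without WT replicate 2 and without Eko replicate 1, where the share of all genes called was 0.591%, 1.79% and 1.22%, and 0 members without Eko replicate 2, where it was 0.745%. The median log2 fold change over the 9 members was 0.15, beside -0.0051 over all genes tested.

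**Figure D1:**
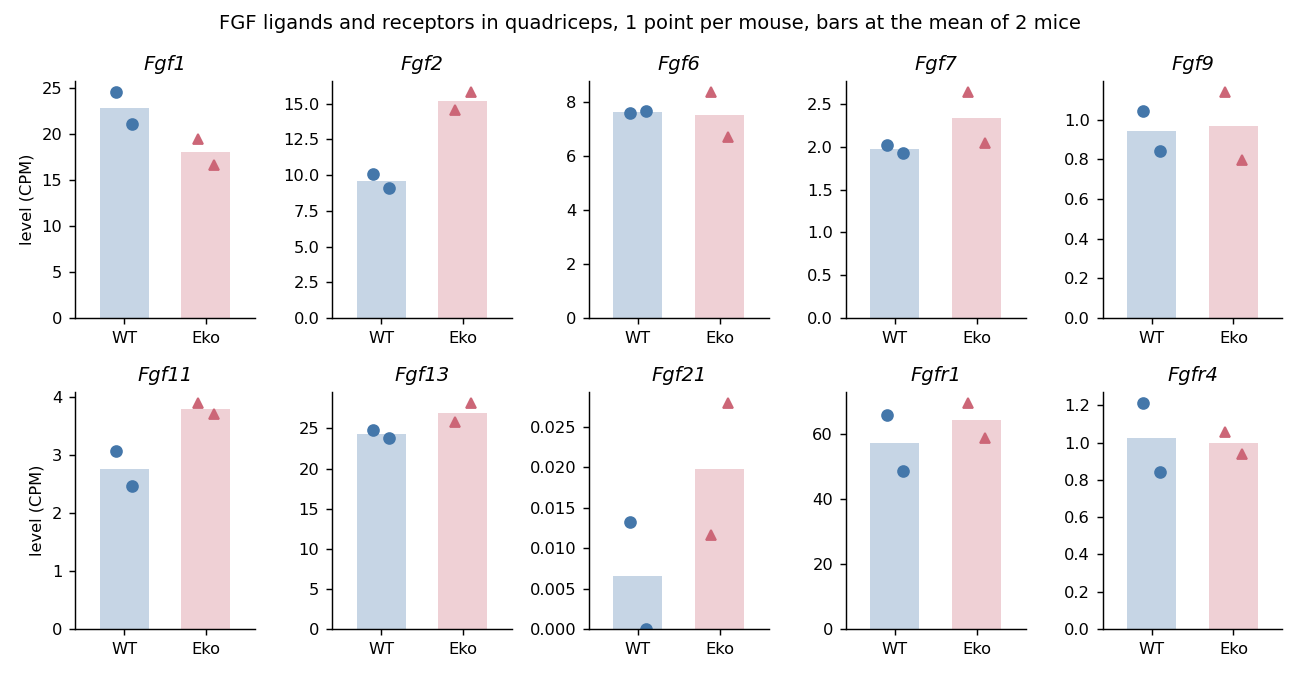
Level of each of the 10 genes in CPM (vertical axes, from 0, a separate scale for each gene), with 1 point per mouse for 2 WT (circles) and 2 Eko mice (triangles) and a bar at the mean of each genotype. Fgf2 was at 9.09 and 10.1 CPM in the WT and at 14.5 and 15.8 CPM in the Eko mice, and Fgf21 stayed below 0.03 CPM in all 4 mice.

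Levels of different genes were compared per kilobase of exon, with CPM divided by the length of all annotated exons of the gene. In WT mice Fgf13 stood first at 6.06 ± 0.18 CPM per kilobase, followed by Fgfr1 at 5.79 ± 1.24 and Fgf1 at 4.17 ± 0.44 (SD, n = 2 mice). The 2 WT mice placed Fgf13 and Fgfr1 in different orders, so these 2 neighbours did not differ beyond their spread. Fgf6 at 1.64 ± 0.013 and Fgf2 at 1.41 ± 0.10 CPM per kilobase came next, then Fgf11 at 0.909 ± 0.14 and Fgf7 at 0.607 ± 0.019. Fgfr4 at 0.290 ± 0.074 and Fgf9 at 0.202 ± 0.030 CPM per kilobase were the lowest of the members above the floor. Apart from Fgf13 and Fgfr1, the WT values of neighbours in this order did not overlap. With the longest transcript as the length, Fgfr1 at 11.3 stood above Fgf13 at 9.74 CPM per kilobase in WT mice.

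Among the paracrine ligands, which act on nearby cells, Fgf2 and Fgf1 had the lowest p-values of the members, and their differences were of opposite sign. Fgf2 (ENSMUSG00000037225.13), also called basic FGF, is a ligand stored in the matrix around muscle fibres and a mitogen of satellite cells, and it lies on the plus strand of chromosome 3 of GRCm38 from 37348346 to 37410108. WT mice had 763 and 735 counts of Fgf2, against 1254 and 1129 in Eko mice. Its level was 10.1 and 9.09 CPM in the WT and 14.5 and 15.8 CPM in the Eko mice. Both Eko mice were above both WT mice, and the gap between the genotypes was larger than the spread within either. The means were 9.57 ± 0.68 and 15.2 ± 0.88 CPM (SD, n = 2 mice), a 1.58-fold difference.

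The log2 fold change of Fgf2 was 0.66 (SE 0.10, 95% interval 0.43 to 0.89), with an unadjusted p of 0.000259 and an adjusted p of 0.0563 in edgeR. Fgf2 is among the genes the study called from these same samples, so a call on it here is not independent evidence. Its log2 fold change stayed between 0.60 and 0.74 in 12 alternative fits, 7 of which gave an adjusted p below 0.05. Without WT replicate 1 it was 0.74 with an adjusted p of 0.0394 in edgeR, and without WT replicate 2 it was 0.61 with an adjusted p of 0.0397. Without Eko replicate 1 it was 0.74 with an adjusted p of 0.00704, and without Eko replicate 2 it was 0.60 with an adjusted p of 0.0736. The smallest two-sided p of an exact permutation test between 2 and 2 mice is 0.333, so that test on Fgf2 alone could not pass 0.05.

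Nudt6, a Nudix hydrolase gene on the other strand, shares 640 bp of exon with Fgf2, and no strand setting for counting is given in the sources used here. Nudt6 had 10.8 and 9.90 CPM in the WT and 9.62 and 9.40 CPM in the Eko mice, a log2 fold change of -0.12 (SE 0.096, adjusted p = 0.668 in edgeR). The ratio of Fgf2 to Nudt6 counts within a library, which no scaling between libraries enters, was 0.928 and 0.918 in the WT and 1.51 and 1.68 in the Eko mice. Nudt6 was lower in both Eko than in both WT mice. Whether reads from the shared bases entered the Fgf2 counts was not tested. Gm43439, which shares 255 bp of exon with Fgf2 on the same strand, had 0 counts in all 4 libraries.

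Fgf1 (ENSMUSG00000036585.16), acidic FGF, binds all the FGF receptors, and it lies on the minus strand of chromosome 18 from 38838673 to 38929472. WT mice had 1858 and 1705 counts of Fgf1, against 1678 and 1189 in Eko mice. The level was 24.5 and 21.1 CPM in the WT and 19.5 and 16.6 CPM in the Eko mice, so both Eko mice were below both WT mice. The Eko mean of 18.0 ± 2.01 CPM was 79.2% of the WT mean of 22.8 ± 2.41 CPM (SD, n = 2 mice). On the log2 scale the change was -0.34 (SE 0.11, 95% interval -0.60 to -0.073), with an unadjusted p of 0.0193 and an adjusted p of 0.328 in edgeR. No exon of another annotated gene overlaps an exon of Fgf1.

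Within each library, the ratio of Fgf2 to Fgf1 counts was 0.411 and 0.431 for WT and 0.747 and 0.950 for Eko mice. Per kilobase this ratio was 0.331 and 0.347 in WT and 0.602 and 0.765 in Eko mice, so Fgf1 remained the more abundant of the 2 RNAs in every mouse. Fgf2 was below Fgf6 per kilobase in both WT mice, at 1.48 against 1.63 and 1.34 against 1.65, and above it in both Eko mice, at 2.14 against 1.80 and 2.33 against 1.44. With the longest transcript as the length, Fgf2 lay above Fgf6 in WT replicate 1 as well, at 1.68 against 1.63 CPM per kilobase.

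Fgf6 (ENSMUSG00000000183.6), a ligand whose expression is largely restricted to skeletal muscle, lies on the plus strand of chromosome 6 from 127015586 to 127028187. Its level was 7.59 and 7.68 CPM in the WT and 8.37 and 6.71 CPM in the Eko mice. The WT values lay between the 2 Eko values. Fgf6 had a log2 fold change of -0.016 (SE 0.13, 95% interval -0.32 to 0.29, adjusted p = 0.978 in edgeR). It was 0.0077 without WT replicate 2 and 0.13 without Eko replicate 2, so no direction is given for Fgf6.

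Fgf7 (ENSMUSG00000027208.14), the keratinocyte growth factor made by mesenchymal cells, lies on the plus strand of chromosome 2 from 126034658 to 126091185. Its level was 2.02 and 1.93 CPM in the WT and 2.63 and 2.04 CPM in the Eko mice. Eko replicate 2 was close to WT replicate 1, and the higher Eko mean of 2.34 ± 0.42 CPM against 1.97 ± 0.062 CPM (SD, n = 2 mice) came mainly from Eko replicate 1. Fgf7 had a log2 fold change of 0.25 (SE 0.19, 95% interval -0.21 to 0.71, adjusted p = 0.675 in edgeR).

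Fgf9 (ENSMUSG00000021974.15), a ligand known from embryonic development, lies on the plus strand of chromosome 14 from 58070547 to 58112720. Its level was 1.04 and 0.841 CPM in the WT and 1.14 and 0.797 CPM in the Eko mice, and the genotypes overlapped. Fgf9 had a log2 fold change of 0.045 (SE 0.29, 95% interval -0.64 to 0.73, adjusted p = 0.970 in edgeR). It turned to -0.087 without WT replicate 2 and to -0.22 without Eko replicate 1. At 57 to 98 counts per library, a difference of Fgf9 within that interval was not detectable with 2 mice of each genotype.

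The 15 paracrine ligands summed to 9.04 and 8.52 CPM per kilobase in WT and to 9.23 and 8.25 in Eko mice, so their total overlapped between genotypes, while the shares of Fgf1 and Fgf2 in it did not. Fgf1 made up 49.6% and 45.3% of that sum in the WT and 38.6% and 36.9% in the Eko mice. The share of Fgf2 was 16.4% and 15.7% in the WT and 23.2% and 28.2% in the Eko mice. Fgf6 held 18.0% and 19.3% in the WT and 19.5% and 17.5% in the Eko mice, where the genotypes overlapped.

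**Figure D2:**
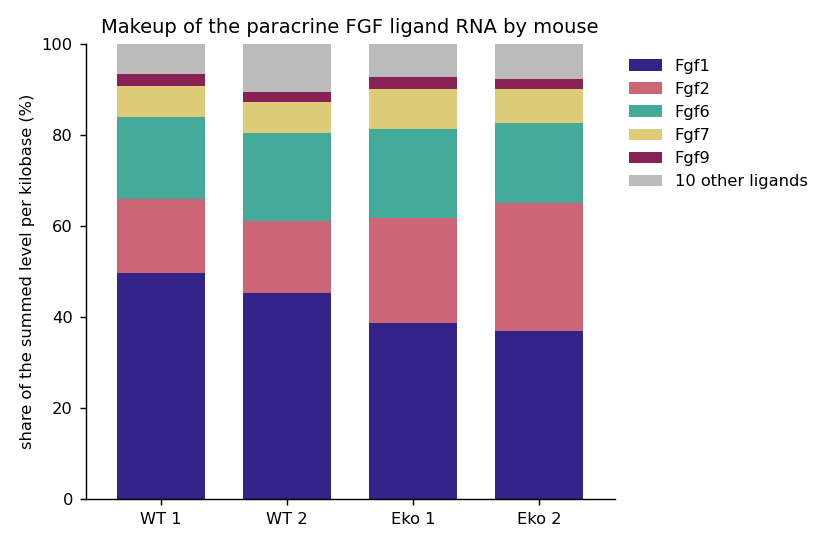
Share of each paracrine ligand in the summed level per kilobase of exon (vertical axis, percent), 1 stacked bar per mouse for 2 WT and 2 Eko mice. The Fgf1 share was 45.3% or more in both WT mice and 38.6% or less in both Eko mice, and the Fgf2 share was at most 16.4% in WT and at least 23.2% in Eko mice.

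Of the 10 paracrine ligands that are not members, 5 were tested. Fgf10, a ligand of mesenchymal cells, had 26 and 32 counts in the WT and 13 and 12 in the Eko mice, a log2 fold change of -1.21 (SE 0.43, adjusted p = 0.359 in edgeR). An antisense gene, Gm16263, shares 123 bp of exon with it. Fgf5, known for its part in the hair cycle, had 17 and 13 counts in WT and 9 in each Eko mouse, with a log2 fold change of -0.74 (SE 0.53). Fgf16, Fgf18 and Fgf22 had between 5 and 59 counts in any library, with log2 fold changes of 0.74 (SE 0.63), -0.15 (SE 0.45) and -0.30 (SE 0.57), and the genotypes overlapped for all 3. Rnf126 shares 82 bp of exon with Fgf22 on the other strand. The smallest adjusted p among the 9 tested family genes that are not members was 0.359. Fgf3, Fgf4, Fgf8, Fgf17 and Fgf20 were not tested, with at most 4 counts in any library, and Fgf8 had 0 counts in all 4 libraries.

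The intracellular factors bind the cytoplasmic tails of sodium channels and are not secreted through the classical route. Fgf13 (ENSMUSG00000031137.17) and Fgf11 (ENSMUSG00000042826.13) were the ones well above the floor in quadriceps. Fgf13 lies on the minus strand of chromosome X from 59062145 to 59568071 and Fgf11 on the minus strand of chromosome 11 from 69796068 to 69801857. A RefSeq promoter window of each on GRCm38.p6 is shown for its motifs. That of Fgf13 is the only window found for the members that holds the MEF2 motif, the letters MEF2 proteins bind. That of Fgf11, the other intracellular factor, holds E-boxes, the CANNTG letters that muscle bHLH factors bind. The Fgf13 window also holds 2 E-boxes, left in lower case. Each line gives the 250 bases upstream of a RefSeq start site, 5′ to 3′ on the gene's strand. For Fgf13 this is chrX:59585573-59585822, a start upstream of the GENCODE limit of the gene, with the MEF2 motif in capitals, beginning 152 bases before the start. For Fgf11 this is chr11:69802281-69802530, with the 3 E-boxes in capitals.
Fgf13: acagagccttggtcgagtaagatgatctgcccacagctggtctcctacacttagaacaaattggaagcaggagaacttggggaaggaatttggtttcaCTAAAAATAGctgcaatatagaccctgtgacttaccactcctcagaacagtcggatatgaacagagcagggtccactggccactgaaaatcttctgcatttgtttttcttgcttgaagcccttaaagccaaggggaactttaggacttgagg
Fgf11: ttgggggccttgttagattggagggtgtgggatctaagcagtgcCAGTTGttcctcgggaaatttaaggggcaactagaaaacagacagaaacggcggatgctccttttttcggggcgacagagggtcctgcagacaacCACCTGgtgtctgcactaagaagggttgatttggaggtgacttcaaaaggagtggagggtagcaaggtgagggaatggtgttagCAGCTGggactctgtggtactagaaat

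RefSeq windows were found for 8 of the 10 members and not for Fgf1 and Fgfr1. They made 11 windows in all since Fgf13 has several start sites, and each was searched over its 250 upstream bases on both strands. The MEF2 motif was in 1 of these 11 windows, beside 2.92% of all 32851 RefSeq windows. The E-box was in 6 of the 11 windows, beside 66.2% of all windows, and the GC box, GGGCGG, in 6 of the 11, beside 32.7%. A palindromic match was counted once, and in the windows shown no motif overlapped another. A match is a description of these letters, and which Fgf13 start site quadriceps uses cannot be read from counts per gene. The window of Fgf2 holds 1 GC box, and it lies within an annotated exon of the gene and is not shown.

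Fgf13 had 1886 and 1927 counts in the WT and 2224 and 2015 in the Eko mice. Its level was 24.9 and 23.8 CPM in the WT and 25.8 and 28.2 CPM in the Eko mice, so both Eko mice were above both WT mice by a margin smaller than the spread between the Eko mice. Fgf13 had a log2 fold change of 0.15 (SE 0.078, 95% interval -0.037 to 0.33, adjusted p = 0.520 in edgeR). The interval leaves out a gain above 0.33 on the log2 scale.

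Fgf11 had 3.07 and 2.46 CPM in the WT and 3.90 and 3.71 CPM in the Eko mice, and both Eko mice were above both WT mice. The means were 2.77 ± 0.43 and 3.80 ± 0.14 CPM (SD, n = 2 mice), a 1.37-fold difference. Fgf11 had a log2 fold change of 0.46 (SE 0.16, 95% interval 0.074 to 0.85), with an unadjusted p of 0.0259 and an adjusted p of 0.357 in edgeR. In 12 alternative fits its log2 fold change lay between 0.32 and 0.63 and its adjusted p between 0.170 and 0.568. The ratio of Fgf11 to Fgf13 counts was 0.124 and 0.103 in the WT and 0.151 and 0.132 in the Eko mice, so Fgf13 was the more abundant of the pair in every mouse. Of the other intracellular factors, Fgf14 had 37 and 16 counts in WT and 42 and 31 in Eko mice, with a log2 fold change of 0.43 (SE 0.49) and 220 bp of exon shared with the antisense Gm28932, and Fgf12 had at most 8 counts and was not tested.

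**Figure D3:**
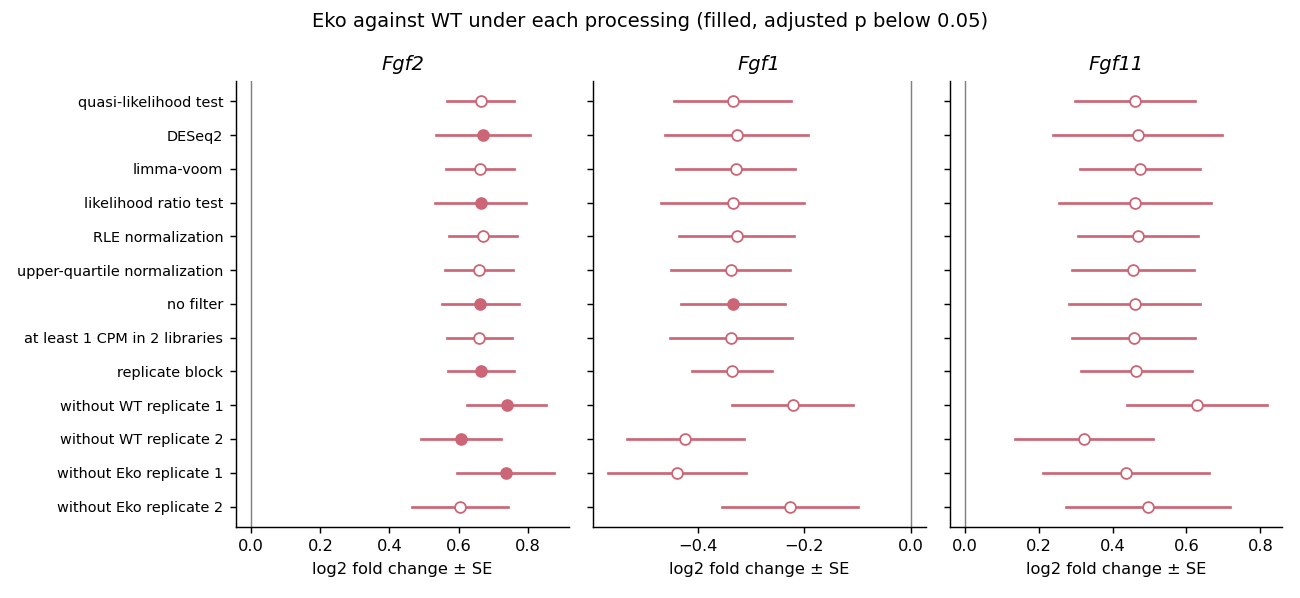
Log2 fold change for Eko against WT (horizontal axes) with its SE as a bar, for Fgf2, Fgf1 and Fgf11 under the quasi-likelihood test and 12 alternative fits (rows). Filled points have an adjusted p below 0.05, which held for 7 alternatives for Fgf2, 1 for Fgf1 and 0 for Fgf11, and every point kept its gene's sign.

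The sodium channel genes that the intracellular factors bind were listed with their beta subunits, 10 genes of which 8 were tested and 0 called, with a median log2 fold change of 0.099. Of the 8 genes 1, Scn4a, had an unadjusted p below 0.05 in edgeR, on the higher side. It was at 544 and 571 CPM in the WT and 627 and 689 CPM in the Eko mice. Its log2 fold change was 0.24 (SE 0.078, adjusted p = 0.326 in edgeR). Scn2b, a beta subunit, had a log2 fold change of 0.48 (SE 0.30), with an adjusted p of 0.582 in edgeR. Both Eko mice were above both WT mice for 4 of the 8 genes and below them for 0, beside 20.8% and 23.0% of all genes tested.

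Fgf21 (ENSMUSG00000030827.5) lies on the minus strand of chromosome 7 from 45613886 to 45615490. Its counts were 1 and 0 in WT and 1 and 2 in Eko mice. All 4 values were below the floor of 3 counts, so neither a level nor a difference of this hormone's RNA was detectable, and no fold is given. Of the other endocrine ligands, Fgf23, a phosphate-regulating hormone of bone, had between 3 and 6 counts, and Fgf15, the bile acid-induced hormone of the ileum, had 0 in all 4 libraries.

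The integrated stress genes were taken beside Fgf21 because that pathway is known to induce it. Of 14 listed genes 13 were tested and 0 called, with a median log2 fold change of -0.067, and 1, Atf5, had an unadjusted p below 0.05, on the lower side. Atf4, the central transcription factor of the response, had the highest level per kilobase and was at 137 and 146 CPM in the WT and 132 and 139 CPM in the Eko mice, overlapping between genotypes. The largest changes in size were 0.63 (SE 0.31) for Atf3, a stress-induced transcription factor, and -0.34 (SE 0.16) for Mthfd2, a mitochondrial folate enzyme, with adjusted p-values of 0.492 and 0.477 in edgeR.

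Fgfr1 was the main FGF receptor RNA among the members in quadriceps. Fgfr1 (ENSMUSG00000031565.18) lies on the plus strand of chromosome 8 from 25513654 to 25575718. Its level was 65.8 and 48.5 CPM in the WT and 69.6 and 58.9 CPM in the Eko mice, and the genotypes overlapped, WT replicate 1 being above Eko replicate 2. The log2 fold change was 0.17 (SE 0.15, 95% interval -0.19 to 0.52, adjusted p = 0.710 in edgeR), and it was -0.020 without WT replicate 2. Gm16159 shares 164 bp of exon with Fgfr1 on the other strand and had between 6 and 15 counts.

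Fgfr4 (ENSMUSG00000005320.9), a receptor of regenerating muscle and liver, lies on the plus strand of chromosome 13 from 55152640 to 55168759. Its counts were 92 and 68 in WT and 91 and 67 in Eko mice, or 1.21 and 0.841 CPM and 1.06 and 0.937 CPM, with both Eko values between the WT values. The log2 fold change was -0.040 (SE 0.28, 95% interval -0.70 to 0.62, adjusted p = 0.974 in edgeR). It was 0.25 without WT replicate 1 and 0.042 without Eko replicate 2, so no direction is given. Per kilobase, Fgfr1 RNA was 19.5 and 20.7 times that of Fgfr4 in WT and 23.6 and 22.5 times in Eko mice. With the longest transcript as the length these ratios were 35.8 and 38.0 in WT and 43.5 and 41.4 in Eko mice.

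Of the receptors that are not members, Fgfrl1 encodes a receptor without a kinase domain. The ratio of Fgfr1 to Fgfrl1 per kilobase was 1.05 and 0.746 in the WT and 1.02 and 0.909 in the Eko mice with all exons as the length, and 1.72 and 1.22 in WT and 1.67 and 1.49 in Eko mice with the longest transcript. The log2 fold change of Fgfrl1 was 0.058 (SE 0.077). Fgfr3 had 198 and 302 counts in the WT and 161 and 191 in the Eko mice, a log2 fold change of -0.49 (SE 0.25, adjusted p = 0.503 in edgeR), with WT replicate 1 just below Eko replicate 2 in CPM. It shares 998 bp of exon with G630022F23Rik on the other strand. Fgfr2 had between 12 and 20 counts, and its log2 fold change was -0.023 (SE 0.47). Ctbp2 shares 314 bp of exon with Fgfr2 on the same strand. Of all 27 FGF ligands and receptors, 18 were tested, and those 18 had a median log2 fold change of 0.015.

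**Figure D4:**
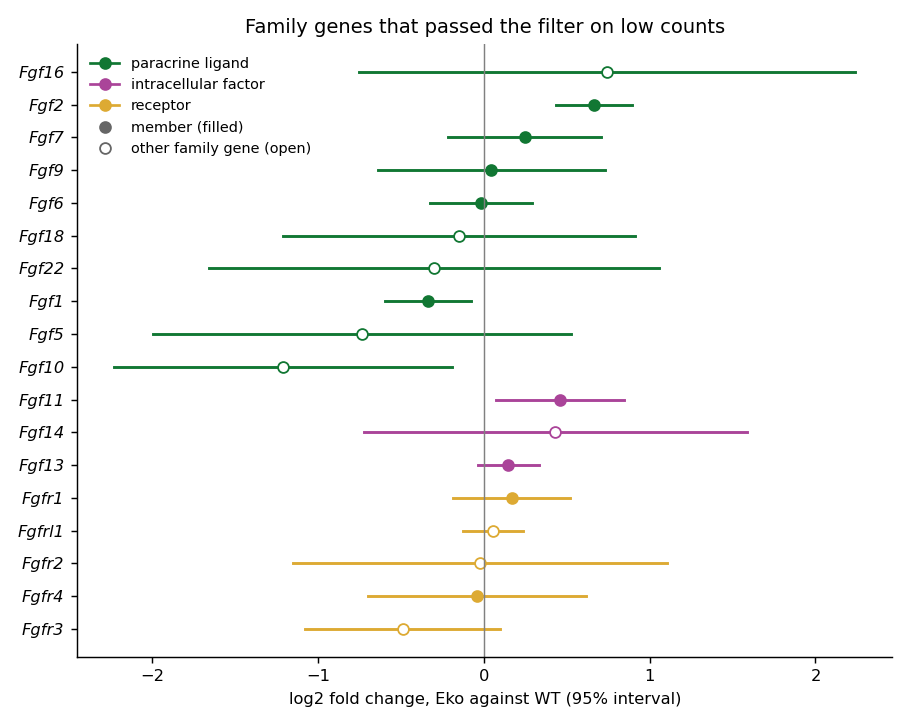
Log2 fold change for Eko against WT (horizontal axis) with its 95% interval for the 18 family genes that passed the filter on low counts, by role. Members are filled and other family genes open, and the intervals of Fgf2, Fgf1, Fgf11 and Fgf10 leave out 0 before any adjustment for the number of genes tested.

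FGF ligands reach their receptors through heparan sulfate proteoglycans, klotho co-receptors and binding proteins. Of 14 listed genes of this kind 13 were tested and 0 called, with a median log2 fold change of -0.018. Gpc1, the glypican 1 proteoglycan that binds FGF2, had the highest level per kilobase, at 366 and 332 CPM in the WT and 273 and 286 CPM in the Eko mice, with both Eko mice below both WT mice. Its log2 fold change was -0.32 (SE 0.076, adjusted p = 0.204 in edgeR), and 977 bp of its exons overlap Ankmy1 on the other strand. Fgfbp1, a secreted protein that releases FGF2 from the matrix, was at 2.73 and 3.46 CPM in the WT and 5.57 and 5.29 CPM in the Eko mice. Both Eko mice were above both WT mice, with a log2 fold change of 0.81 (SE 0.15, adjusted p = 0.13 in edgeR). Kl, a klotho co-receptor, had 20 counts in both WT mice, 52 in Eko replicate 1 and 28 in Eko replicate 2. Its log2 fold change was 0.96 (SE 0.40, adjusted p = 0.428 in edgeR). Klb, another klotho co-receptor listed, had 7 and 5 counts in the WT and 9 and 3 in the Eko mice and was not tested.

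Of 14 enzymes that build or trim heparan sulfate all 14 were tested and 0 called, with a median log2 fold change of -0.033. Hs6st2, a 6-O-sulfotransferase, was at 3.03 and 3.49 CPM in the WT and 5.44 and 6.21 CPM in the Eko mice. Both Eko mice were above both WT mice, with a log2 fold change of 0.84 (SE 0.14, adjusted p = 0.0959 in edgeR). Hs3st1, a 3-O-sulfotransferase, differed by -0.42 (SE 0.28), and Extl3, which starts the heparan sulfate chain and had the highest level per kilobase, by 0.15 (SE 0.064) on the log2 scale.

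Of 23 genes that relay the receptor's signal all 23 were tested and 0 called, with a median log2 fold change of 0.024. Akt2, the AKT kinase of insulin-responsive tissues, had the highest level per kilobase and differed by -0.14 (SE 0.066) on the log2 scale. Akt1, another AKT kinase, had 3434 and 3148 counts in WT and 2524 and 2463 in Eko mice, a log2 fold change of -0.40 (SE 0.11, adjusted p = 0.251 in edgeR). Frs3, an adaptor of FGF receptors, differed by -0.31 (SE 0.16), and 509 bp of its exons overlap Frs3os on the other strand.

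FGF signalling is known to induce its own inhibitors and a set of early genes. Of 21 listed genes 20 had a row and were tested and 0 were called, with a median log2 fold change of 0.014. Spry1, a Sprouty inhibitor of the RAS pathway, had the highest level per kilobase and was at 16.4 and 13.4 CPM in the WT and 16.3 and 16.9 CPM in the Eko mice, where the genotypes overlapped, and 710 bp of its exons overlap Gm42922 on the other strand. Spred3, a Sprouty-related inhibitor, was at 5.28 and 4.82 CPM in the WT and 2.68 and 2.46 CPM in the Eko mice. Its log2 fold change was -0.97 (SE 0.14, adjusted p = 0.0522 in edgeR), with both Eko mice below both WT mice, and 202 bp of its exons overlap Ggn on the other strand. Egr1, an immediate early transcription factor, had 1681 and 242 counts in the WT and 875 and 193 in the Eko mice, so its spread within a genotype was larger than the difference between them. Of the 20 genes 5 had an unadjusted p below 0.05, 3 higher and 2 lower in Eko mice, beside 11.6% of all genes tested.

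Over the 6 lists together 91 genes were tested, 0 were called in edgeR and 16 had an unadjusted p below 0.05, 9 higher and 7 lower, beside 11.6% of all genes tested. DESeq2 called 5 of the 91, beside 2.39% of the 13307 genes for which it gave an adjusted p. These were Fgfbp1, Hs6st2 and Flrt1, higher in Eko mice, and Gpc1 and Spred3, lower in Eko mice. DESeq2 gave no adjusted p for Kl, Hs3st3b1, Hpse, Flrt3 and Trib3. With a mouse left out, edgeR called 4 of the 91 without WT replicate 2 (Fgfbp1, Hs6st2, Spred3 and Flrt1), 3 without Eko replicate 1 (Hs6st2, Spred3 and Atf3), 1 without WT replicate 1 (Pik3r1) and 0 without Eko replicate 2. Flrt1, a membrane protein that binds FGF receptors, was named after its values were seen and was at 1.78 and 2.71 CPM in the WT and 4.28 and 4.26 CPM in the Eko mice.

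**Figure D5:**
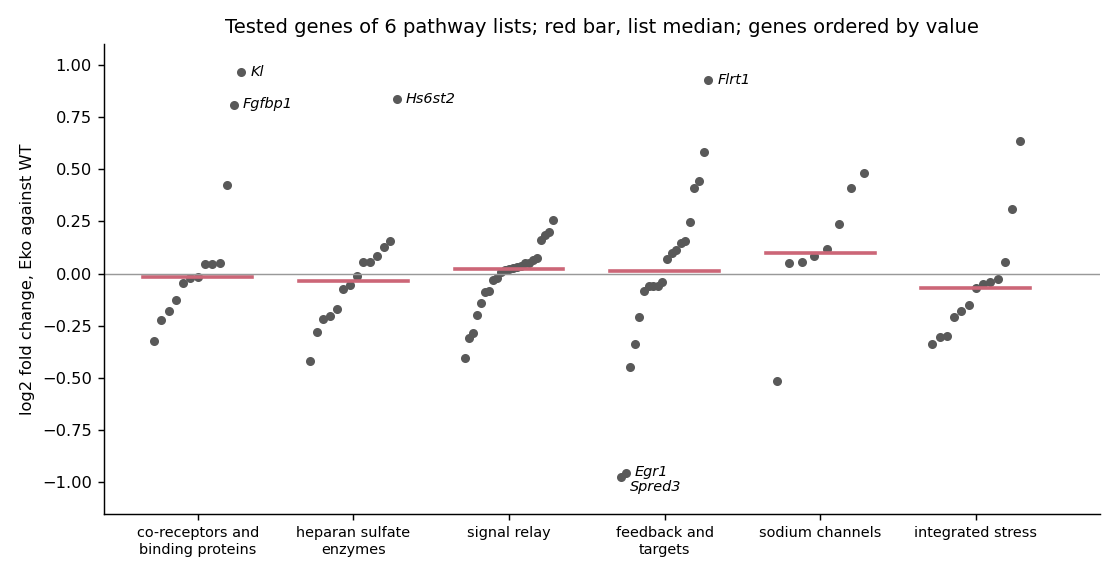
Log2 fold change for Eko against WT (vertical axis) of each tested gene in 6 lists around FGF signalling, with genes ordered by value within a list and a bar at the list's median. The medians lie between -0.067 and 0.099, and the named genes are those beyond 0.75 in size.

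In bulk muscle, fewer cells of a type and less RNA per cell cannot be told apart, and markers of other cell types differed in level between the mice. The 8 adipocyte markers summed to 170 and 101 CPM in the WT and 95.4 and 71.9 CPM in the Eko mice, and 5 of the 8 had an unadjusted p below 0.05, all lower in Eko mice, with a list median of -1.14. The 8 macrophage markers summed to 46.3 and 37.7 CPM in the WT and 33.5 and 24.7 CPM in the Eko mice, with 6 of 8 at an unadjusted p below 0.05, all lower, and a list median of -0.63. Of the 8 markers of fibro-adipogenic cells 4 were below that p, all lower, with a median of -0.21, while their summed level, 652 and 662 CPM in WT and 674 and 571 CPM in Eko mice, overlapped. The 8 Schwann cell markers summed to 45.6 and 48.0 CPM in the WT and 50.3 and 61.2 CPM in the Eko mice, with 2 at that p, both higher, and the 7 mural markers to 303 and 288 and to 316 and 353 CPM, also with 2, both higher.

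Of the 8 fibre genes 3 were below that p, all lower in Eko mice. Of the 6 satellite cell markers, 7 endothelial, 7 tendon and 5 blood markers, 0 had an unadjusted p below 0.05. The summed satellite cell markers were at 27.6 and 25.8 CPM in the WT and 28.1 and 29.3 CPM in the Eko mice, with a list median of 0.17. None of the marker genes was called in edgeR and none was at 0 in all libraries. Summed adipocyte and macrophage markers were thus lower in both Eko than in both WT mice. The sums of mural, Schwann and satellite cell markers were higher in both Eko mice, and those of the other lists overlapped between genotypes. The part of these cell types in the differences of the FGF genes was not tested.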

How the data were processed

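Quadriceps RNA of 2 WT and 2 Mef2dα2 Eko mice was selected for polyA, made into stranded libraries and sequenced in pairs. The authors aligned the reads to mm10 (STAR 2.6.1a in the submitters' processing notes) and quantified genes by RSEM against Ensembl GRCm38. The deposited unit is the expected count, with no normalization. All deposited values were whole, so rounding changed none. The strand setting is not given in the sources used here.

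Counts were compared in R 4.3.3 with edgeR 4.0.16 (quasi-likelihood test, TMM, default filter on low counts, prior count 0.125, genotype as the sole term), which tested 16120 of the 24621 rows with any count, and p-values were adjusted by Benjamini-Hochberg at 0.05. Alternatives were DESeq2 1.42.0, limma-voom (limma 3.58.1), the likelihood ratio test, RLE and upper-quartile scaling, no filter, at least 1 CPM in 2 libraries, a replicate block, and each mouse left out. The fit was tested on simulated data. Symbols on more than 1 row (91 symbols) were kept apart.

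Positions, exons and lengths came from GENCODE M21 (GRCm38), whose gene limits can differ from the annotation the authors used, and promoter windows from RefSeq (GRCm38.p6). Members and lists were chosen with earlier results of these data known. All members were named, all FGF ligands and receptors accounted for, and from each of the 6 pathway lists the genes called or else the 2 with the largest change and the 1 with the highest level per kilobase. Of the sodium channel list, 2 genes named by this rule are not reported here. Depth was 72626757 to 85176059 counts per library.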

Additional observations from a re-analysis of the deposited data

How the results depend on the processing

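The number of genes called moved from 67 to 318 with DESeq2, 312 with the likelihood ratio test, 799 without a filter, 23 with at least 1 CPM in 2 libraries and 186 with the replicate block, and was 99 without WT replicate 1, 299 without WT replicate 2, 204 without Eko replicate 1 and 126 without Eko replicate 2. The members called were 0, and 1 with DESeq2, the likelihood ratio test and the block, 2 without a filter (Fgf2 and Fgf1), and 0 to 1 with each mouse left out. Genes of the pathway lists called were 0, and 5 with DESeq2, 4 with the likelihood ratio test, 14 without a filter, 2 with the block and 0 to 4 with each mouse left out. The log2 fold change of Fgf2 was 0.66 in the main test, 0.67 with DESeq2 (adjusted p = 0.00014), 0.66 with the likelihood ratio test (adjusted p = 7.26e-05), 0.66 without a filter (adjusted p = 5.6e-07), 0.66 with the block (adjusted p = 0.0243), and 0.60 to 0.74 with each mouse left out. The cause of these shifts was not tested. Limma-voom and both other scalings left 0 members called, with adjusted p-values of Fgf2 between 0.0535 and 0.0634.

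In the fits without 1 mouse, the log2 fold change ranged between -0.17 and 0.13 for Fgf6, -0.22 and 0.27 for Fgf9, -0.020 and 0.41 for Fgfr1, and -0.27 and 0.25 for Fgfr4, so these 4 changed sign, while Fgf1, Fgf2, Fgf7, Fgf11 and Fgf13 kept theirs in all 12 alternatives. The replicate numbers number different mice and their deviations from the genotype means correlated at 0.0909, so the mice were not treated as pairs. The 2 mice of each genotype and counts under 100 limit Fgf9 and Fgfr4 most, and Fgf21 was below the floor.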
